A study of Mus musculus with 30 samples.

Results

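A set of 10 enzymes that carry glucose to pyruvate and lactate were followed in the postnatal mouse hippocampus: Hk1, Pfkl, Aldoa, Aldoc, Tpi1, Pgam1, Eno2, Pkm, Ldha and Ldhb. They were chosen by symbol, as all non-control probe sets whose single gene name in the array's annotation is one of these, which gave 13 probe sets for 10 genes out of 12422 probe sets and 8251 genes on the array. A total of 12 probe sets passed the filter on dim signal and were tested, and at least 1 was tested for each gene. A probe set is a group of short probes read together as 1 intensity. Aldoa, Pkm and Ldhb have 2 probe sets each.

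Total RNA was measured on 30 single-colour mouse arrays, and each RNA was a pool of hippocampi from 2 male pups. The pups came from crosses of C57BL/6 mice with mice that carry 1 disrupted copy of Nf1, the gene of neurofibromin, a protein that restrains Ras signalling. Pools were of wild-type pups or of Nf1 heterozygotes (labelled NF+/-), taken at postnatal days 10, 15, 18, 20, 28 and 32 (P10 to P32). Wild type had 3, 4, 2, 2, 2 and 2 pools at these ages, and heterozygotes had 4, 4, 2, 2, 2 and 1. Heterozygous cells of every type keep 1 intact copy of the gene. Pools are named here by the code in their titles, such as 1b. The labels do not say whether pools of 1 group come from separate litters, so each p-value reflects how these particular pools vary, which may be technical, and the small number of arrays limits the precision.

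Array medians ranged from 50.0 to 59.1 intensity units. The heterozygous P18 pool 1b stood apart: its Gapdh 3'/5' ratio, a control for RNA integrity, was 1.40, against 0.793 to 1.12 in the other pools, and its correlation with the other P18 heterozygote over all tested probe sets was 0.93, where the median over pools was 0.971. Member results at P18 that rest on this pool are therefore given with and without it. The probe set for Nf1 was dim, at 1.43 to 19.1 in 15 wild-type pools and 2.15 to 15.04 in 15 heterozygous pools, so it was not tested and checks no label. The summed intensities of neuronal, astrocyte and oligodendrocyte markers were at least 6931, 3419 and 654 in every pool. Single markers could be dim, such as the oligodendrocyte marker Mog, with a mean of 6.77 in heterozygotes at P10. In bulk tissue, fewer cells of a type and less RNA per cell cannot be told apart.

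Glycolysis splits glucose into pyruvate in the cytosol and gains ATP and NADH. Hexokinase and phosphofructokinase commit the sugar, aldolase cleaves it, and triosephosphate isomerase, phosphoglycerate mutase, enolase and pyruvate kinase carry the fragments to pyruvate. Lactate dehydrogenase then interconverts pyruvate and lactate. It is a tetramer of A subunits (Ldha), which prevail in glycolytic tissue, and B subunits (Ldhb), which prevail in oxidative tissue. In the brain, aldolase C is known as an astrocyte-enriched enzyme in the forebrain, and enolase 2 as the neuron-specific enolase.

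The 2 lactate dehydrogenase genes moved in opposite directions in wild type, so their promoters are shown first, for the 250 bases before the start of transcription, from RefSeq on GRCm38.p6. Ldha has 2 windows, and the upstream one, chr7:46845554-46845803 on the plus strand, is printed. The range given below for the gene begins farther upstream, at 46842274, and no window before that position was examined. The Ldhb window is chr6:142507958-142508207 on the minus strand. That of Pgam1, a gene that rose, is chr19:41911621-41911870 on the plus strand. All read 5′ to 3′. Capitals mark ACGTG or its complement CACGT, the core of the site known for hypoxia-inducible factors and shared with E-box factors.
Ldha: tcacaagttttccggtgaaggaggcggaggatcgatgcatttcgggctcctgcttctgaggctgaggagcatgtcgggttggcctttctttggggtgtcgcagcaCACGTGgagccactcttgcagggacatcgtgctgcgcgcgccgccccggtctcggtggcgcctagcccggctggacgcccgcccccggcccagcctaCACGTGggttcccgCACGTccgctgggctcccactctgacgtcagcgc
Ldhb: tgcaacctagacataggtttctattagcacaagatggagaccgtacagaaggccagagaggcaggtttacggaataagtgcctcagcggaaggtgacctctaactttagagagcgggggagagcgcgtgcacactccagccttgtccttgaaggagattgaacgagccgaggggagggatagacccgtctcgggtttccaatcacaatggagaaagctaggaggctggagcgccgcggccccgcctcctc
Pgam1: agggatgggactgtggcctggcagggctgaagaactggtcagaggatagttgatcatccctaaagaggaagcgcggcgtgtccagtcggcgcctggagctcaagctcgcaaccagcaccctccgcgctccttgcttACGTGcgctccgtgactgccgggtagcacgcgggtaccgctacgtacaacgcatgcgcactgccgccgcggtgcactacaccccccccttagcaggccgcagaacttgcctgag

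The Ldha window held 5 matches counted on both strands, of which 2 pairs overlap within CACGTG, and its second window held 0. The Ldhb window held 0 matches and the Pgam1 window 1. Over all members, 5 of 16 windows and 4 of 10 genes (Ldha, Aldoa, Pkm and Pgam1) had a match, where 16.6% of 32851 mouse windows of the same length have one. Of these 5 windows, 2 are Aldoa windows that overlap and hold the same match. The motif GGGCGG or CCGCCC, the core of the GC box, was in 6 of 16 member windows and in 32.7% of all windows. A match describes the letters in a window and is not a binding site.

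Most members changed with age. Averaged over the genotypes, 11 of the 12 probe sets passed the test for any difference among the 6 ages (limma, Benjamini-Hochberg adjusted p below 0.05), where 54.2% of all 7453 tested probe sets did. The exception was Pfkl (F = 1.32, adjusted p = 0.35). From P10 to the mean of P28 and P32, called maturation here, 9 of 12 probe sets passed in wild type, against 38.2% of all probe sets. Of these, 7 rose, where 18% of all did, and 2 fell, where 20.1% of all did. In heterozygotes 7 of 12 passed, against 36.5% of all, and all 7 rose, where 17% of all did (19.5% fell). The median change of the 12 was 0.30 (log2) in wild type and 0.41 in heterozygotes, beside medians of -0.04 and -0.06 over all tested probe sets. The difference in maturation between the genotypes passed for 0 of 12 members and for 0% of all probe sets in limma. At an unadjusted p under 0.05 there were 2 members and 508 of all 7453 probe sets.

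**Figure D1:**
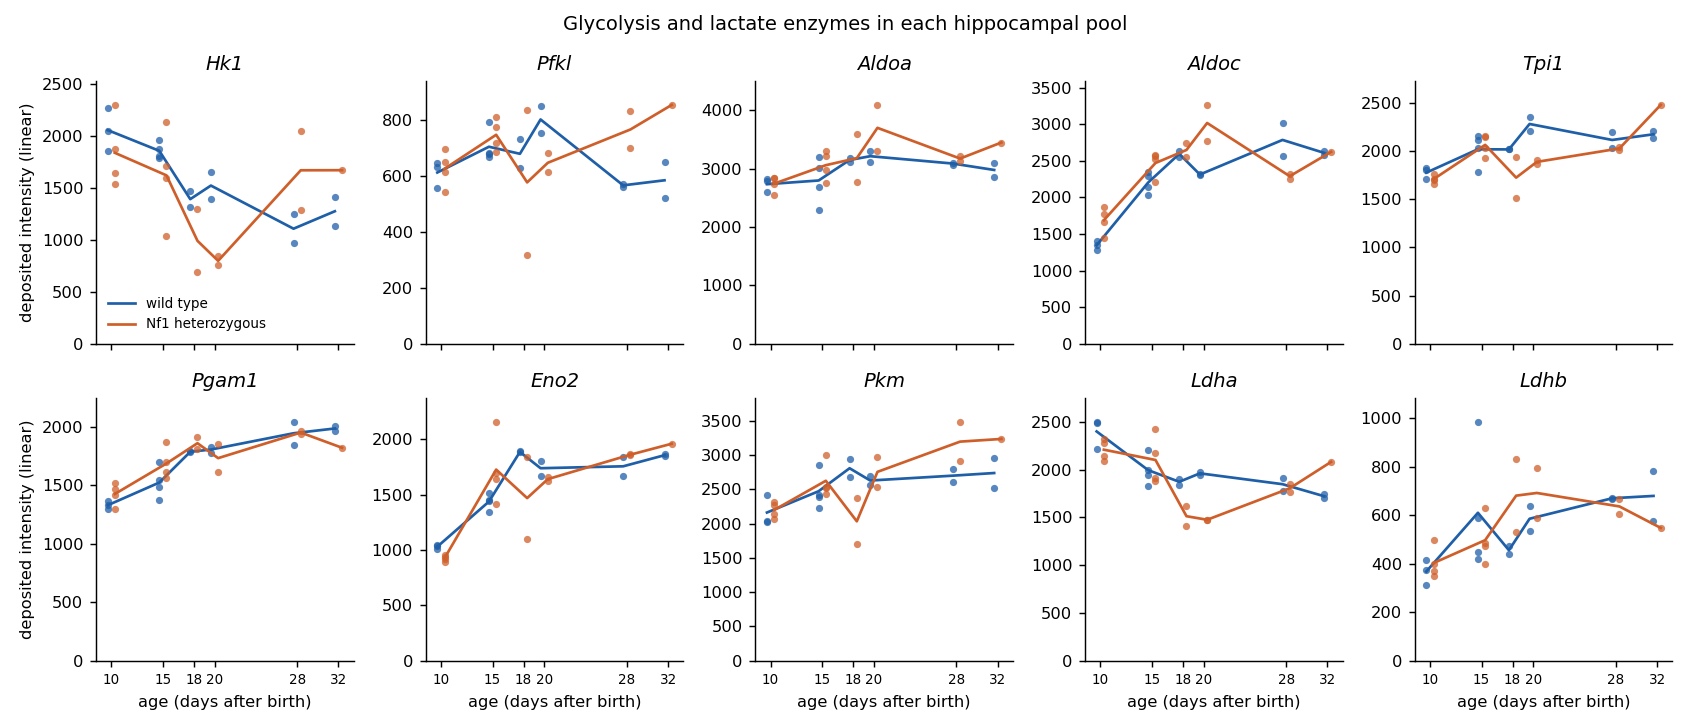
Deposited intensity (linear scale, vertical axis from 0) against age in days for the brightest probe set of each gene. Each point is 1 pool of 2 pups, wild type in blue and Nf1 heterozygous in orange, and lines join group means. Aldoc and Eno2 climb from P10 to P18 in wild type, Ldha and Hk1 fall in wild type, and the P18 heterozygotes are far apart for Pfkl (318 and 839) and Eno2 (1100 and 1838).

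Hk1 (hexokinase 1, probe set 99335_at, chromosome 10, 62268855 to 62379920 on GRCm38.p6) phosphorylates glucose and is the main hexokinase of the brain. In wild type its intensity was 2054, 2273 and 1854 at P10, 1791, 1808, 1967 and 1875 at P15, 1314 and 1474 at P18, 1393 and 1657 at P20, 972 and 1246 at P28, and 1137 and 1417 at P32. Every wild-type pool of P28 and P32 lay below every wild-type pool of P10, a separation that 44.4% of all probe sets show. For separations that include P15, P18 or P20, given for other members below, the share of all probe sets was not counted. Wild-type Hk1 fell by 0.80 on the log2 scale (SE 0.20, adjusted p = 0.00346, limma). In heterozygotes it was 1644, 1880, 2303 and 1536 at P10, 1602, 1043, 2135 and 1713 at P15, 1295 and 689 at P18, 756 and 842 at P20, 1291 and 2054 at P28, and 1673 at P32. Here the late pools overlapped the P10 pools, and the change was -0.14 (SE 0.21, adjusted p = 0.632, limma). The heterozygous P20 pools were the lowest apart from P18 pool 1b. The difference in maturation between genotypes was 0.66 (95% interval 0.05 to 1.26, adjusted p = 0.695, limma).

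Pfkl (liver-type phosphofructokinase, 92637_at, chromosome 10, 77986947 to 78009807) catalyses the committing step of glycolysis. Its wild-type pools ranged from 521 to 851 over all ages. The P10 pools were 648, 559 and 633, and the late pools were 563 and 572 at P28 and 521 and 650 at P32, which overlap. In heterozygotes the P10 pools were 698, 614, 650 and 545, and the late pools were 702 and 834 at P28 and 856 at P32, all above P10, as 48.4% of all probe sets separate in heterozygotes. The change was -0.09 (SE 0.19) in wild type and 0.37 (SE 0.19, adjusted p = 0.129, limma) in heterozygotes. The 2 heterozygous P18 pools, at 839 and 318, set much of this gene's spread: without pool 1b the same heterozygous change of 0.37 had an adjusted p of 0.00662, the age effect passed (F = 3.31, adjusted p = 0.0376), and the step from P10 to P15 of 0.23 passed (adjusted p = 0.0142). Without pool 1a instead, the heterozygous change had an adjusted p of 0.00669 and the age effect an F of 11.07 (adjusted p = 8.1e-05, limma).

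The aldolases cleave fructose bisphosphate, Aldoa being the ubiquitous form and Aldoc the brain form. Aldoc (160546_at, chromosome 11, 78323073 to 78327781) was 1346, 1280 and 1409 at P10 in wild type, 2292, 2035, 2144 and 2349 at P15, 2553 and 2637 at P18, 2318 and 2308 at P20, 3011 and 2561 at P28, and 2584 and 2636 at P32. Every pool from P15 on lay above every P10 pool. Wild-type Aldoc rose by 1.0 (log2, SE 0.09, adjusted p = 9e-09, limma). Heterozygous pools were 1865, 1449, 1771 and 1668 at P10, 2208, 2585, 2563 and 2527 at P15, 2556 and 2742 at P18, 2770 and 3265 at P20, 2257 and 2323 at P28, and 2622 at P32. All 4 heterozygous P10 pools lay above the 3 wild-type ones, a separation of the genotypes that 10% of all probe sets show at P10. The 2 highest heterozygous pools were those of P20, and both heterozygous P28 pools lay below the wild-type P28 pools, where 39% of all probe sets separate. The heterozygous rise was 0.54 (1.46-fold, SE 0.09, adjusted p = 5.4e-05, limma), and the difference between the genotypes in this rise was -0.46 (95% interval -0.72 to -0.20, adjusted p = 0.411, limma). That adjusted p was the lowest among the members for this comparison.

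Aldoa (chromosome 7, 126795234 to 126800994) was read by 2 probe sets of different brightness. On the dimmer, 161889_f_at, wild-type pools were 1029, 1061 and 1102 at P10 and 1412, 1543, 1561 and 1420 at P28 and P32. Heterozygous pools were 1189, 1077, 1146 and 769 at P10 and 1527, 1536 and 1477 at P28 and P32. The late pools lay above P10 in both genotypes, and the rise was 0.48 (SE 0.13, adjusted p = 0.00615) in wild type and 0.55 (SE 0.14, adjusted p = 0.003) in heterozygotes (limma). On the brighter, 160090_f_at, the changes were smaller, at 0.15 (SE 0.10, adjusted p = 0.254) in wild type and 0.27 (SE 0.11, adjusted p = 0.046) in heterozygotes (limma). Its wild-type means were 2733 ± 119 (SD, n = 3) at P10 and 3032 ± 116 (SD, n = 4) at P28 and P32. The 2 probe sets thus agree in sign and differ in size and in the wild-type call. Both carry the suffix _f, which marks probes shared with related sequences, so the part of close aldolase A copies in these values is uncertain. The heterozygous call on the brighter probe set was lost under 23 alternatives.

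Tpi1 (triosephosphate isomerase, 99566_at, chromosome 6, 124810586 to 124814158) interconverts the 2 triose phosphates. It was 1804, 1708 and 1822 in wild type at P10 and 2201, 2034, 2141 and 2212 at P28 and P32, with no overlap. It rose by 0.27 (SE 0.08, adjusted p = 0.00866, limma). In heterozygotes it was 1767, 1698, 1662 and 1712 at P10, 2014 and 2045 at P28 and 2482 at P32, again with no overlap. The rise was 0.39 (SE 0.08, adjusted p = 0.00056, limma), and 0.25 (adjusted p = 0.035) without the single P32 pool. The lowest pool of all was heterozygous P18 pool 1b, at 1516.

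Pgam1 (phosphoglycerate mutase 1, 160091_at, chromosome 19, 41911871 to 41918665) moves the phosphate within phosphoglycerate. Wild-type pools were 1363, 1332 and 1293 at P10, 1541, 1372, 1696 and 1485 at P15, 1791 and 1783 at P18, 1832 and 1780 at P20, 1848 and 2042 at P28, and 2005 and 1968 at P32. The 3 P10 pools were the lowest 3, and the P18 and P20 pools lay within 1780 to 1832. Pgam1 rose by 0.56 in wild type (SE 0.08, adjusted p = 7.1e-06, limma). Heterozygous pools were 1471, 1415, 1518 and 1301 at P10 and 1938, 1965 and 1821 at P28 and P32. The rise was 0.40 (SE 0.08, adjusted p = 0.0005, limma).

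Eno2 (enolase 2, 99045_at, chromosome 6, 124760053 to 124769673) makes phosphoenolpyruvate and is used as a marker of mature neurons. Its wild-type pools were 1042, 1036 and 1011 at P10, 1519, 1440, 1448 and 1343 at P15, 1891 and 1881 at P18, 1669 and 1808 at P20, 1672 and 1840 at P28, and 1868 and 1844 at P32. The 3 ages P10, P15 and P18 did not overlap, and the pools from P18 to P32 all lay within 1669 to 1891. Wild-type Eno2 rose by 0.81 (1.75-fold, SE 0.12, adjusted p = 1.5e-05, limma). Heterozygous pools were 937, 959, 914 and 892 at P10, 1693, 1418, 1637 and 2157 at P15, 1838 and 1100 at P18, 1655 and 1625 at P20, 1863 and 1859 at P28, and 1960 at P32. The 4 heterozygous P10 pools lay below the 3 wild-type ones, but that difference of -0.15 did not pass (SE 0.12, adjusted p = 0.918, limma). The heterozygous rise was 1.05 (2.06-fold, SE 0.13, adjusted p = 9e-07, limma).

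Pkm (muscle-type pyruvate kinase, chromosome 9, 59656576 to 59679372) makes pyruvate and ATP, and its splice forms M1 and M2 are not told apart here. On the brighter probe set, 96066_s_at, wild-type pools were 2041, 2417 and 2026 at P10 and 2603, 2795, 2518 and 2957 at P28 and P32. Heterozygous pools were 2137, 2310, 2272 and 2074 at P10 and 2908, 3483 and 3235 at P28 and P32. The late pools lay above P10 in both genotypes. The rise was 0.33 (SE 0.11, adjusted p = 0.0201) in wild type and 0.55 (SE 0.11, adjusted p = 0.00059) in heterozygotes (limma). The wild-type call was lost without P10 pool 1b (0.29, adjusted p = 0.0795) or 2b (0.29, 0.0863), P28 pool 1b (0.31, 0.0615) or P32 pool 1b (0.27, 0.0803). The second probe set, 162032_f_at, gave 0.20 (SE 0.18, adjusted p = 0.389) and 0.42 (SE 0.18, adjusted p = 0.0756, limma). Its wild-type pools were uneven within ages, with 720 and 1369 at P20 and 795 and 1389 at P32.

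**Figure D2:**
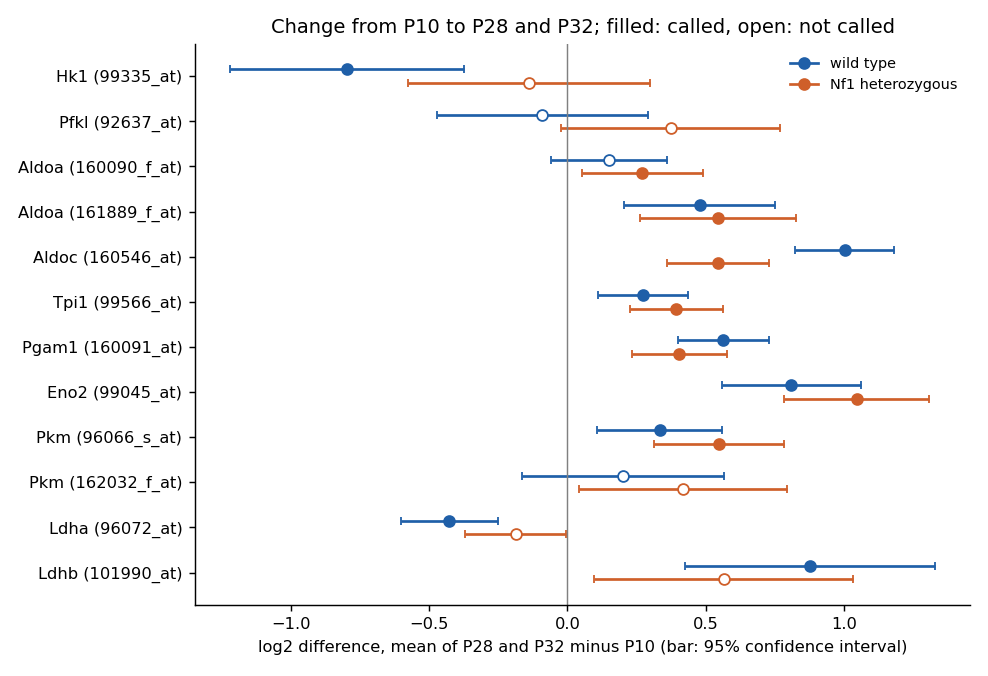
Log2 difference between the mean of P28 and P32 and P10 for each tested probe set, wild type in blue and Nf1 heterozygous in orange. Bars are 95% confidence intervals from the fit, and filled points have an adjusted p below 0.05. In wild type Hk1 and Ldha are the 2 filled points below 0, and Aldoc, at 1.0, is the farthest above.

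Ldha (lactate dehydrogenase A, 96072_at, chromosome 7, 46842274 to 46855627) fell in wild type. Its wild-type pools were 2500, 2488 and 2213 at P10, 2002, 1947, 2202 and 1827 at P15, 1843 and 1903 at P18, 1979 and 1944 at P20, 1779 and 1917 at P28, and 1702 and 1744 at P32. All 12 pools from P15 on lay below the 3 P10 pools, though narrowly at P15, with 2202 against 2213 at P10. The change was -0.43 (SE 0.09, adjusted p = 0.00037, limma). In heterozygotes Ldha was 2323, 2281, 2087 and 2145 at P10, 2431, 2178, 1912 and 1885 at P15, 1621 and 1405 at P18, 1473 and 1478 at P20, 1764 and 1847 at P28, and 2081 at P32. The 4 lowest pools were those of P18 and P20. The P28 and P32 pools were again higher, all 3 still below the 4 P10 pools, with a change of -0.19 (SE 0.09, adjusted p = 0.0989, limma). Without the single P32 pool this change was -0.29 (adjusted p = 0.0233).

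Ldhb (lactate dehydrogenase B, 101990_at, chromosome 6, 142490249 to 142507957) was 375, 313 and 415 in wild type at P10, 985, 587, 447 and 421 at P15, 439 and 472 at P18, 534 and 636 at P20, 671 and 669 at P28, and 578 and 781 at P32. The highest pool was P15 pool 1a, and the P28 and P32 pools all lay above P10. Wild-type Ldhb rose by 0.88 (1.84-fold, SE 0.22, adjusted p = 0.00278, limma). Heterozygous pools were 349, 368, 497 and 397 at P10, 475, 399, 630 and 485 at P15, 832 and 529 at P18, 796 and 587 at P20, 669 and 604 at P28, and 548 at P32. The late pools again lay above P10, with a change of 0.56 (SE 0.23, adjusted p = 0.0537, limma). Without either P18 heterozygote that p was 0.0418. The second Ldhb probe set, 161945_at, was too dim to test, with a mean log2 of 1.22.

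The balance of the 2 subunit transcripts differed between ages. Relative to the wild-type P10 mean, the log2 ratio of Ldhb over Ldha was 1.30 ± 0.18 (SD, n = 4) in wild type at P28 and P32 and 1.07 ± 0.26 (SD, n = 3) in heterozygotes. All 7 of these pools lay between 0.79 and 1.56, and no P10 pool was above 0.64. In heterozygotes the ratio was highest at P20, at 1.38 and 1.83. With the brighter Aldoa probe set, 160090_f_at, the ratio of Aldoc over Aldoa was 0.85 ± 0.11 (SD, n = 4) in wild type and 0.58 ± 0.04 (SD, n = 3) in heterozygotes at P28 and P32, starting from 0.32 ± 0.10 (SD, n = 4) in heterozygotes at P10. With the other, 161889_f_at, it was 0.52 ± 0.17 (SD, n = 4) in wild type, and in heterozygotes 0.33 ± 0.14 (SD, n = 3) late against 0.37 ± 0.29 (SD, n = 4) at P10. The heterozygous ratio was thus higher late than at P10 with 160090_f_at and not with 161889_f_at. These ratios combine 2 probe sets within an array and are descriptions with no test.

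**Figure D3:**
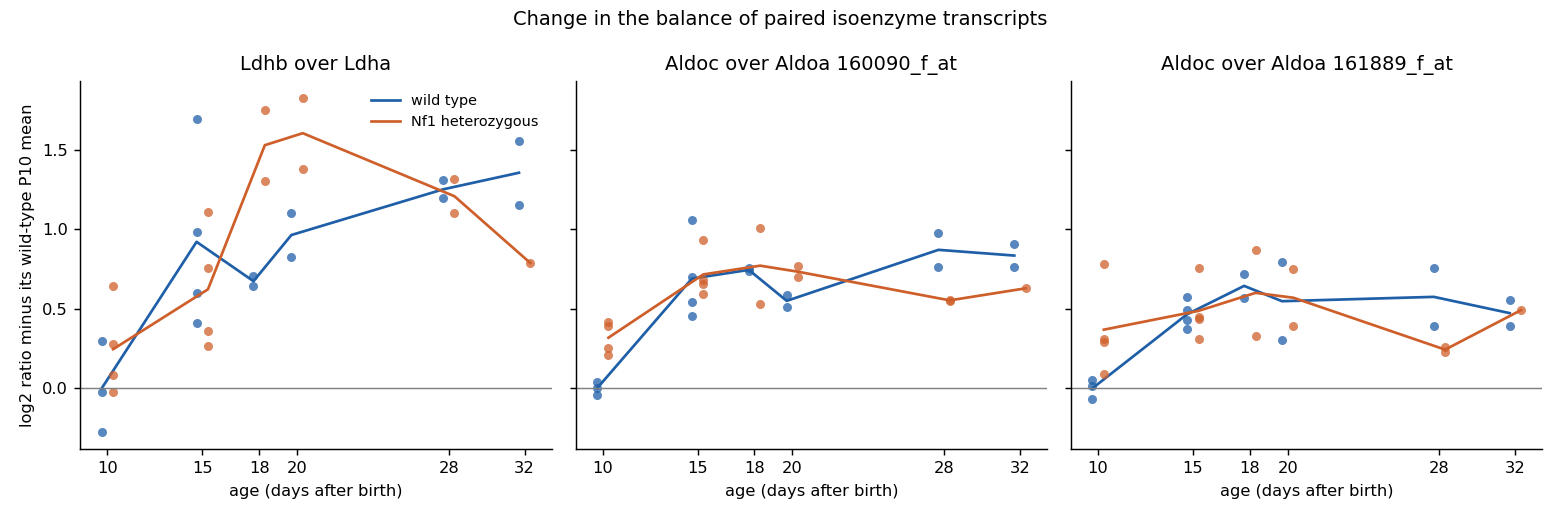
Log2 ratio of paired isoenzyme intensities, minus its wild-type P10 mean, against age in days, 1 point per pool and lines through group means. Ldhb over Ldha climbs to a mean of 1.30 in wild type at P28 and P32 and to 1.60 in heterozygotes at P20; Aldoc over Aldoa has means of 0.85 in wild type and 0.58 in heterozygotes at P28 and P32 with Aldoa 160090_f_at, and of 0.52 and 0.33 with 161889_f_at.

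More members passed in the first step than in any later one. Its groups held 3 or 4 pools, against 1 or 2 from P18 on, so the counts depend on group size too. Averaged over genotypes, the step from P10 to P15 passed for 9 of 12 probe sets, against 25.9% of all probe sets. Within wild type alone it passed for 2 of 12, Aldoc and Eno2, against 5.76% of all, and within heterozygotes for 6 of 12, against 21.2% of all. Of the 9 in the average, 8 rose, where 12.5% of all did, led by Eno2 (0.68, SE 0.08, adjusted p = 1.6e-06), Aldoc (0.63, SE 0.06, adjusted p = 2.6e-08), Pkm 162032_f_at (0.60, SE 0.12, adjusted p = 0.00059) and Ldhb (0.48, SE 0.15, adjusted p = 0.0205; limma). Ldha fell (-0.17, SE 0.06, adjusted p = 0.03, limma). The genotype difference in this step passed for 0 of 12 members and 0% of all probe sets (1 member and 505 probe sets at an unadjusted p under 0.05, limma).

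The step from P15 to P18 passed for 2 members, Hk1 (-0.58, SE 0.16, adjusted p = 0.0474) and Ldha (-0.28, SE 0.07, adjusted p = 0.0295, limma), against 3.84% of all probe sets, and 1.89% in that direction. Both calls ended without heterozygous P18 pool 1b (Hk1 -0.35, adjusted p = 0.326; Ldha -0.23, adjusted p = 0.162), and the Hk1 call was lost under 30 of 40 alternatives. Of the later steps, P18 to P20 passed for 0.0134% of all probe sets, P20 to P28 for 8.06% and P28 to P32 for 0.0134%, and no member passed in them. At an unadjusted p under 0.05 there were 1, 0 and 0 members, beside 567, 1744 and 207 of all probe sets (limma). From P18 on, where groups held 1 or 2 pools, no neighbouring ages thus passed for any member in the average of the genotypes.

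Few members passed a test between the genotypes, although their pools often did not overlap in the small groups from P18 on. The genotypes did not overlap for 2 of 12 members at P10 (10% of all probe sets), 0 at P15 (2.97%), 8 at P18 (56%), 8 at P20 (51.7%), 7 at P28 (39%) and 9 at P32 (70.3%, with 1 heterozygous pool). Over all ages the heterozygote-minus-wild-type difference ran from -0.20 for Hk1 to 0.22 for Pkm 162032_f_at, and it passed for 0 of 12 members and 0% of all probe sets (2 members and 698 probe sets at an unadjusted p under 0.05, limma). At P10, 0.0403% of all probe sets passed and at P15 0%, with no member among them. At an unadjusted p under 0.05 there was 1 member at each age, beside 443 and 440 of all probe sets (limma). The P10 member was Aldoc, higher in heterozygotes by 0.32 (1.25-fold, SE 0.09, adjusted p = 0.329, limma). At P28, 0.0134% of all probe sets passed and at P32 0.0537%, again with no member. At an unadjusted p under 0.05 there were 2 and 0 members, beside 385 and 509 of all probe sets (limma).

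At P18, 22.8% of all probe sets passed, and 2 of 12 members did, both lower in heterozygotes, where 11.8% of all did. Pkm 96066_s_at was 2674 and 2941 in wild type and 2369 and 1697 in heterozygotes, a difference of -0.48 (SE 0.14, adjusted p = 0.0201, limma). Ldha was 1843 and 1903 against 1621 and 1405, a difference of -0.31 (SE 0.11, adjusted p = 0.0469, limma). Neither gene's genotypes overlapped, which 56% of all probe sets show at this age. The lower value was in each case pool 1b, which was also the lowest of all 30 for Pfkl, Hk1, Tpi1, Pkm (on 96066_s_at) and Ldha. Without pool 1b the differences were -0.24 for Pkm (adjusted p = 0.404) and -0.21 for Ldha (adjusted p = 0.389), and no member passed, against 3.54% of all probe sets. Without pool 1a, 6 members passed, against 37.2% of all, with Pfkl at -1.10 and Hk1 at -1.01. The part of RNA integrity in these values was not tested, beyond the count of 0 members that passed with the Gapdh ratio as a covariate.

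The change from P15 to P18 differed between genotypes for Eno2 (-0.66, SE 0.20, adjusted p = 0.0325) and Pkm 96066_s_at (-0.57, SE 0.18, adjusted p = 0.0378, limma), against 12% of all probe sets (5.88% in the lower direction). Without heterozygous pool 1b these were -0.29 (adjusted p = 0.394) and -0.33 (adjusted p = 0.353), so both calls rest on that pool. The change from P18 to P20 differed between genotypes for 1.44% of all probe sets and for no member. At an unadjusted p under 0.05 there were 2 members and 1523 of all probe sets (limma).

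At P20, 2.27% of all probe sets passed and no member did. At an unadjusted p under 0.05 there were 5 members, beside 1216 of all probe sets (limma). Both wild-type P20 pools carry title number 2 (2a and 2b) and both heterozygous ones title number 1 (1a and 1b). The labels do not say what this number means, and at P20 it cannot be told apart from genotype. The 3 members nearest to the threshold were Ldha, Hk1 and Aldoc. Ldha was 1979 and 1944 in wild type and 1473 and 1478 in heterozygotes, a difference of -0.41 (SE 0.11, adjusted p = 0.0509, limma). Hk1 was 1393 and 1657 against 756 and 842, a difference of -0.93 (1.90-fold lower, SE 0.27, adjusted p = 0.0641, limma). Aldoc was 2318 and 2308 against 2770 and 3265, a difference of 0.38 (SE 0.11, adjusted p = 0.0732, limma). The genotypes did not overlap for any of the 3, a separation that 51.7% of all probe sets show at P20. Leaving out heterozygous P18 pool 1b keeps these P20 values and differences and changes only the shared estimate of the spread. The adjusted p of all 3 was then lower (limma). That spread changes for every probe set, and the share of all that passed in that fit is not given here.

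**Figure D4:**
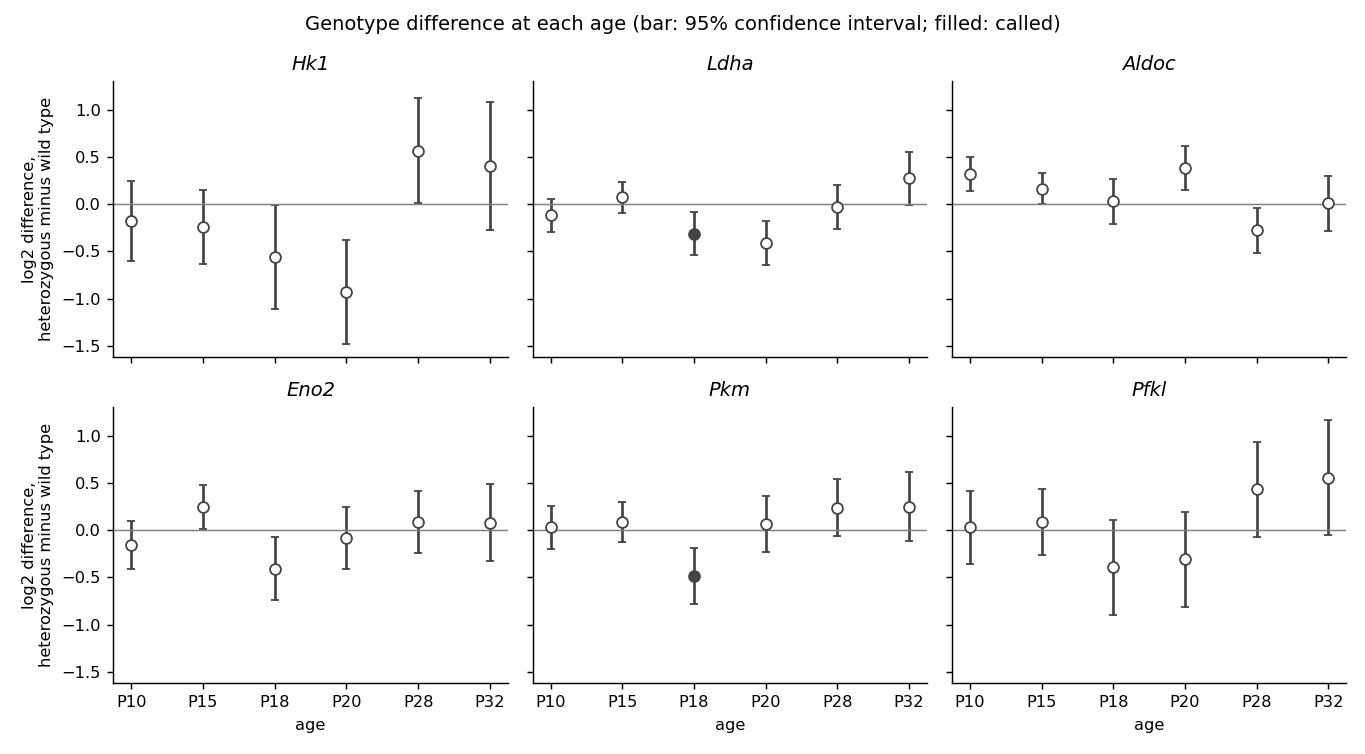
Log2 difference, heterozygous minus wild type, at each age for 6 genes (brightest probe sets), with 95% confidence intervals from the fit; filled points have an adjusted p below 0.05. The 2 filled points are Ldha and Pkm at P18; Hk1 is lowest at P20 (-0.93) and above 0 at P28 (0.57).

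The genotype difference depended on age for 1 member, Aldoc (F = 4.86, adjusted p = 0.0496, limma), against 6.49% of all probe sets. This call was at the threshold and was lost under 28 of 38 alternatives, among them the fit without heterozygous P18 pool 1b (F = 5.28, adjusted p = 0.0657). Ldha (F = 4.72, adjusted p = 0.0543) and Hk1 (F = 4.16, adjusted p = 0.0735) were next. Changes from P20 share the limit that title number cannot be told apart from genotype at that age. From P20 to P28 Hk1 changed by 1.49 more in heterozygotes than in wild type (SE 0.38, adjusted p = 0.0572) and Aldoc by -0.66 (SE 0.16, adjusted p = 0.0555, limma), where 0.577% of all probe sets passed and no member did. Without heterozygous P18 pool 1b these differences, and that of Pfkl at 0.74, stayed the same and had lower adjusted p-values (limma). Only the shared estimate of the spread changes in that fit, for every probe set, and the share of all that passed is not given here.

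Markers of several cell types moved with age beside these genes. The summed intensity of 7 oligodendrocyte markers was 928 to 1042 in wild type at P10 and 7432 to 8522 at P28 and P32, and 654 to 828 and 8716 to 9173 in heterozygotes. All 6 tested oligodendrocyte markers rose in both genotypes, where 18% of all probe sets rose in wild type and 17% in heterozygotes. Mbp, a myelin protein, was up by 2.23 and 2.78. The sum of 7 astrocyte markers was 3771 to 3857 at P10 and 5569 to 6604 late in wild type, and 3466 to 3740 and 5384 to 5722 in heterozygotes. Of these, 5 of 7 rose in wild type, and in heterozygotes 5 rose and Aqp4 fell. Glul, the glutamine synthetase of astrocytes, rose by 2.51 in wild type, and S100b by 1.68. The sum of 6 neuronal markers went from 7208 to 7523 at P10 to 8907 to 9803 late in wild type, with Snap25 up by 0.83 and Stmn3 down by 0.55. Endothelial markers summed to 1010 to 1074 at P10 and 452 to 677 late in wild type, and 4 of 7 fell, where 20.1% of all probe sets did. At P18 the astrocyte sum was 4504 and 6393 in heterozygotes against 3657 to 4002 in wild type. At P20, where the heterozygous Aldoc pools lay above the wild-type ones, it was 4098 and 5245 against 3419 and 3884. Of its markers, Aqp4, the water channel of astrocytes, was higher in heterozygotes at P20 by 1.03 (adjusted p = 0.0139) and Glul by 0.90 (adjusted p = 0.0459, limma). The others did not pass at P20, with S100b (0.53), Slc1a2 (0.22) and Gja1 (0.10) higher and Gfap (-0.33) and Gjb6 (-0.58) lower. At P18 Aqp4 (0.74) and Glul (1.29) passed as higher and Gjb6 as lower (-0.64, adjusted p = 0.0405, limma), and the others did not pass. The P18 marker values and calls include heterozygous pool 1b, which stood apart in its Gapdh ratio, and are not given without it. The astrocyte markers thus moved both ways. The part of cell makeup in the members' changes was not tested.

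The genes whose pattern over the 30 pools was most like a member's were Itm2c (r = 0.965) and Kcnab2 (0.952) for Eno2, Fkbp1a (0.925) and Slc23a2 (0.91) for Pgam1, and Myrf (0.913) and Mt2 (0.911) for Aldoc. For Ldha they were Dnmt1 (0.821) and Actb (0.819), for Hk1 Actb (0.788) and Glud1 (0.786), and for Ldhb Mfn1 (0.845) and Adcy9 (0.844). Among the members, Eno2 and Pgam1 were most alike (r = 0.796) and Aldoc and Ldha most opposed (r = -0.76), while Hk1 and Ldha ran together (r = 0.732). These are Pearson correlations of log2 values over the same 30 arrays, which share the age course and the arrays' scaling.

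The other enzymes of the same pathway moved both ways. Of 11 measured, 6 were tested; Pgk1, the phosphoglycerate kinase, rose by 0.47 in wild type and 0.50 in heterozygotes, and Bpgm, a bisphosphoglycerate mutase, rose by 0.58 and 0.60 (limma adjusted p 0.0057 and 0.00451, and 0.00016 and 0.00017). Hk2, the insulin-sensitive hexokinase, fell by 0.79 (adjusted p = 0.00173) and 0.62 (adjusted p = 0.0147, limma), the same direction as Hk1 in wild type. Their median was -0.08 in wild type and 0.15 in heterozygotes, beside -0.04 and -0.06 over all probe sets.

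Of 7 tested genes of glucose and lactate transport, 2 rose and 3 fell in wild type, where 18% of all probe sets rose and 20.1% fell. In heterozygotes 2 rose and 2 fell, where 17% of all rose and 19.5% fell. Slc2a1, the glucose carrier GLUT1 of endothelium and astrocytes, rose by 0.93 and 0.96 (adjusted p = 0.00023 and 0.00029, limma), while the endothelial marker sum fell. Emb, a chaperone of monocarboxylate carriers, rose by 1.34 and 0.95, and its relative Bsg fell by 0.92 and 0.65. Slc16a1, the lactate carrier MCT1, fell by 0.60 in wild type (adjusted p = 0.0164, limma). The list's median was -0.14 and -0.29, beside -0.04 and -0.06 over all probe sets.

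**Figure D5:**
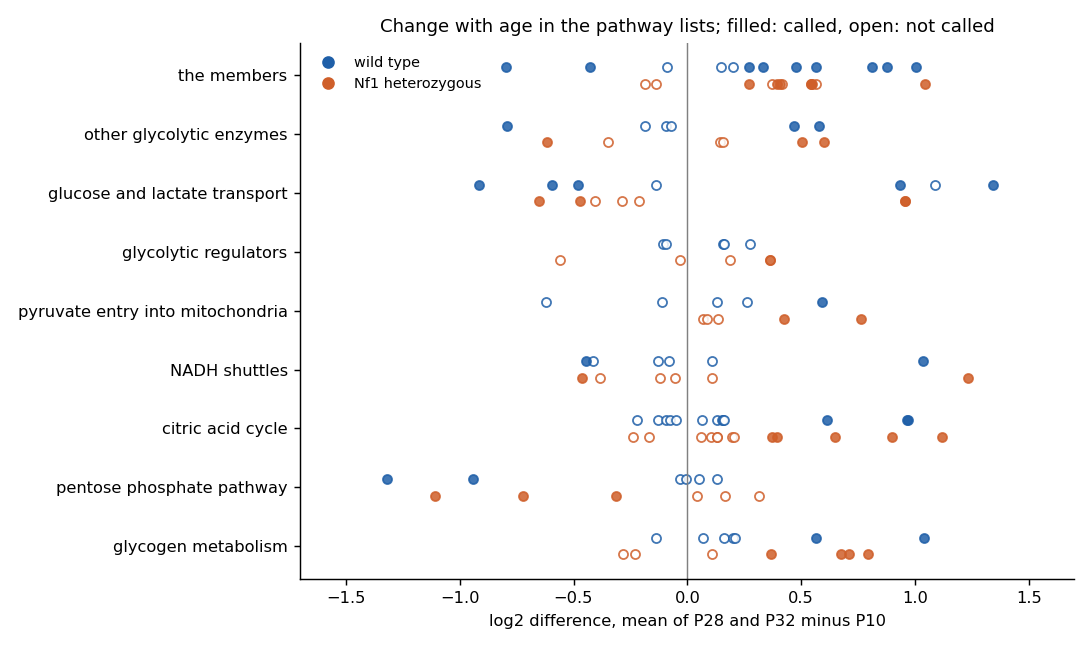
Log2 difference between the mean of P28 and P32 and P10 for each tested gene of 8 lists and for the members (top row, 12 probe sets), wild type in blue and Nf1 heterozygous in orange; filled points have an adjusted p below 0.05. Citric acid cycle, glycogen and pyruvate entry genes have filled points only above 0, as do the glycolytic regulators (Pdk3 in heterozygotes). Pentose phosphate genes have them only below 0.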

How the data were processed

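The deposited series table holds 1 linear intensity per probe set and array; no source used here names the software behind these intensities. Values were raised to at least 1 (6295 values lay below) and taken to log2. The 66 control probe sets and the dimmest 40% by mean log2 (under an intensity of 30.8) were left out, which left 7453. Gene names are those of the platform annotation: 10833 probe sets have 1 symbol, 396 several and 1193 none.

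limma 3.58.1 in R 4.3.3 fitted 1 mean per genotype and age over all 30 arrays (age and genotype for the effect over all ages), with an intensity trend and two-sided tests; p-values were adjusted by Benjamini-Hochberg over all 7453, and an adjusted p below 0.05 is a call. The fit was tested on simulated data. The members and lists were chosen with earlier results of these data known. Every probe set of every member is reported. Other genes named are list members that were called, the remaining tested astrocyte markers, and the 2 most correlated genes. The latter are given for Eno2, Pgam1, Aldoc, Ldha, Hk1 and Ldhb and not for the other members. Intensity depends on the probes, so levels of different genes were not compared. Alternatives changed the scale, filter, normalization, block, weights, covariate and samples.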

Additional observations from a re-analysis of the deposited data

Results flagged for a closer look

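In 4 of the 39 groups of 4 pools that were examined, 1 pool lay far from the other 3 (its gap over the range exceeded 0.829); chance gives this in about 1 of 20 groups. Pfkl in wild type at P15 was 793 in pool 1b and 669 to 682 in the others (0.895). Aldoc in heterozygotes at P15 was 2208 in pool 1c and 2527 to 2585 in the others (0.846). Pkm 162032_f_at in heterozygotes at P15 was 1774 in pool 2c and 1514 to 1549 in the others (0.863). The dim Ldhb 161945_at in heterozygotes at P15 was 9.65 in pool 2c and 1.46 to 2.05 in the others (0.928).

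The tests of whether a change with age differed between the genotypes picked out 3 results. The genotype difference of Aldoc varied with age (F = 4.86, limma adjusted p = 0.0496). The step from P15 to P18 differed between genotypes by -0.66 for Eno2 (limma adjusted p = 0.0325) and by -0.57 for Pkm 96066_s_at (limma adjusted p = 0.0378). Both step differences rest on heterozygous P18 pool 1b.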

How the results depend on the processing

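Of 43 member results that passed, 23 did so under all of the 11 processing alternatives and 30 fits without 1 pool that gave a value, and 20 lost the call under some; of 221 that did not pass, 34 gained a call, and 0 called values changed sign. The counts that follow are of members, mostly without the share of all probe sets under the same setting. They show how stable the calls were and do not set the members apart from other genes. The members that passed for maturation in heterozygotes were 11 with the compared groups only. At P18 the genotype effect passed for 1 member with no filter, with quantile normalization and with no variance trend, and for 0 with array weights, the Gapdh ratio as a covariate or the compared groups only. At P20 it passed for 1 with log2(value + 32), with the lowest 60% left out or with the compared groups only, and for 3 with array weights or with both P18 heterozygotes left out. The interaction passed for 2 with the lowest 60% left out and for 0 with no filter, no trend or the Gapdh ratio. The step from P15 to P18 passed for 1 with quantile normalization or no trend and for 0 with no filter, array weights, the Gapdh ratio or the compared groups only; its genotype difference passed for 0 with no filter, quantile normalization, no trend, array weights, the Gapdh ratio or the compared groups only. The genotype difference from P20 to P28 passed for 2 with array weights, 1 with the compared groups only and 3 with both P18 heterozygotes left out.

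Title codes are shared across groups. Deviations from the group mean had a median r of -0.00454 over 59 same-coded pairs, 12 of them over 0.1. Over 319 pairs with other codes the median was 0.00179, with 46 over 0.1. In groups of 2 the deviations mirror each other, so this check is weak and cannot exclude a pairing by code. At P18 the wild-type pools are coded 1c and 1d and the heterozygous ones 1a and 1b. Within that age, code and genotype thus cannot be told apart. With the title code as a replicate block, 0 members passed at P18, 0 in the interaction, 3 in the step from P10 to P15, 1 in the step from P15 to P18 and 0 in its genotype difference. It left 6 calls for maturation in wild type, without Aldoa 161889_f_at (adjusted p = 0.0756), Pkm 96066_s_at (0.0809) and Tpi1 (0.0769), 6 in heterozygotes, without Aldoa 160090_f_at (0.0916), and 10 for the age effect, without Pkm 162032_f_at (F = 1.81, adjusted p = 0.258, limma). With the title number as a replicate block, 1 passed at P20 and 1 in the step from P15 to P18.

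Leaving out 1 pool at a time, the count of members that passed ranged from 10 to 12 for the age effect, 8 to 9 for maturation in wild type, 6 to 9 in heterozygotes, 0 to 6 at P18, 0 to 3 at P20, 0 to 7 for the interaction, 7 to 10 from P10 to P15, 0 to 4 from P15 to P18, 0 to 5 for its genotype difference, 0 to 2 from P18 to P20, 0 to 3 for its genotype difference and 0 to 3 for that from P20 to P28. The upper ends at P18, in the interaction and in the steps to and from P18 came from leaving out heterozygous P18 pool 1a, which leaves pool 1b alone; the lone pool is then assumed to vary like the other groups. Leaving out both P18 heterozygotes, or the single P32 heterozygote, gives no value for the age effect, the interaction or a step or genotype effect that needs that group, and the compared groups alone give none for the age effect, the interaction or the effect over all ages. Calls over all probe sets varied as well, at P18 from 264 to 2769 of 7453. With the probe set of smallest p in place of the brightest, 9 rather than 8 genes passed for maturation in wild type and 8 rather than 7 from P10 to P15. Groups of 1 or 2 pools limit what could be detected from P18 on.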

Other observations

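Of 13 tested citric acid cycle genes, 3 rose and 0 fell in wild type, and 5 rose and 0 fell in heterozygotes, where 18% and 17% of all probe sets rose, with medians of 0.13 and 0.20 beside -0.04 and -0.06 over all probe sets. Suclg1 and Sucla2, subunits of succinyl-CoA synthetase, rose by 0.97 and 0.61 in wild type and by 0.90 and 0.65 in heterozygotes. Sdha, the flavoprotein of succinate dehydrogenase, rose by 0.97 and 1.12. Dld, the shared E3 subunit of the pyruvate and oxoglutarate dehydrogenases, rose by 0.59 and 0.76, the only one of 5 tested genes of pyruvate entry to pass in wild type; in heterozygotes Dlat passed too, at 0.42. Gpd1, the cytosolic enzyme of the glycerol phosphate shuttle, rose by 1.04 and 1.23, with a signal of 161 at P10 and 330 at P28 and P32 in wild type, while the malate dehydrogenase Mdh1 fell by 0.45 in wild type.

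Of 6 tested genes of the pentose phosphate pathway, 2 fell in wild type and 3 in heterozygotes, where 20.1% and 19.5% of all probe sets fell, and 0 rose; Pgls and Pgd, which act on phosphogluconolactone and phosphogluconate, fell by 1.32 and 0.94 in wild type and by 1.11 and 0.72 in heterozygotes. Of 7 tested glycogen genes, 2 rose in wild type and 4 in heterozygotes, beside the same 18% and 17% of all, and 0 fell; Pygm, a glycogen phosphorylase found in astrocytes and muscle, rose by 1.04 and 0.79, and Ugp2, which makes UDP-glucose, by 0.56 and 0.67. Of 5 tested regulators of glycolysis, 0 passed in wild type, where 38.2% of all probe sets did (limma). In heterozygotes 1 passed, where 36.5% of all did: Pdk3, a kinase that inhibits pyruvate dehydrogenase, rose by 0.36.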
